A study of Pseudopodoces humilis with 2 samples.

Results

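Introns of 100 bases or fewer were examined in the liver and muscle transcriptome of the ground tit (Pseudopodoces humilis), a songbird of the Tibetan plateau. An intron was the gap between consecutive exons of an assembled transcript, and introns with the same scaffold, ends and strand were counted once. Of 153810 unique introns, 9243 had 100 bases or fewer (6.01%, Wilson 95% interval 5.89 to 6.13), and these are called short introns here. The other 144567 are called longer introns. The members were chosen by length alone.

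Total RNA of liver and of muscle, 1 sample each, had been sequenced on an Illumina HiSeq instrument to help annotate the genome. The labels give no age, sex, strain or treatment for the birds and do not say which muscle was taken. Transcripts assembled from the reads were given as 1 set for liver and 2 sets for muscle, called muscle-2 and muscle-3. The files used here pair no gene ID with a name, so the tissue labels were not checked against marker genes and introns are named by scaffold and position.

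Introns are removed from the primary transcript by the spliceosome, which has to recognise the 5′ splice site, the branch point and the 3′ splice site of each one. A vertebrate intron needs a minimal distance between these sites, so very short introns are rare. Short introns are generally recognised by pairing of the splice sites across the intron (intron definition), whereas exons between long introns are recognised across the exon (exon definition). Bird genomes are compact, and genes on their small, gene-dense chromosomes tend to have the shortest introns.

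Short introns were a similar share of the introns of each assembly. Liver held 6199 short introns among 107293 (5.78%, Wilson 95% interval 5.64 to 5.92). Muscle-2 held 8042 among 132166 (6.08%, 5.96 to 6.21) and muscle-3 held 7392 among 123396 (5.99%, 5.86 to 6.12). Both muscle assemblies together gave 8741 among 144707 (6.04%), so the share in liver differed from that in muscle by -0.26 percentage points, liver minus muscle. There were no replicates, and no difference between the tissues was tested. Wilson intervals cover counting error only, and introns of 1 transcript are not independent of each other. The shares of liver and muscle are not independent either, since 5697 of the 6199 short liver introns were also in a muscle assembly.

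The length distribution had a sharp lower flank and a broad top. The median short intron had 85 bases, with quartiles at 78 and 91, and the median was 85 bases in each assembly. The commonest length was 79 bases in each assembly, with 387 introns over all of them. Lengths of 75 to 95 bases held 6761 members (73.1%). Longer introns had a median of 941 bases. The limit of 100 bases fell on the slope behind the top and at no gap, with 213 introns of exactly 100 bases, 239 introns 1 base longer, 1148 of 96 to 100 bases and 1063 over the next 5 lengths.

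**Figure D1:**
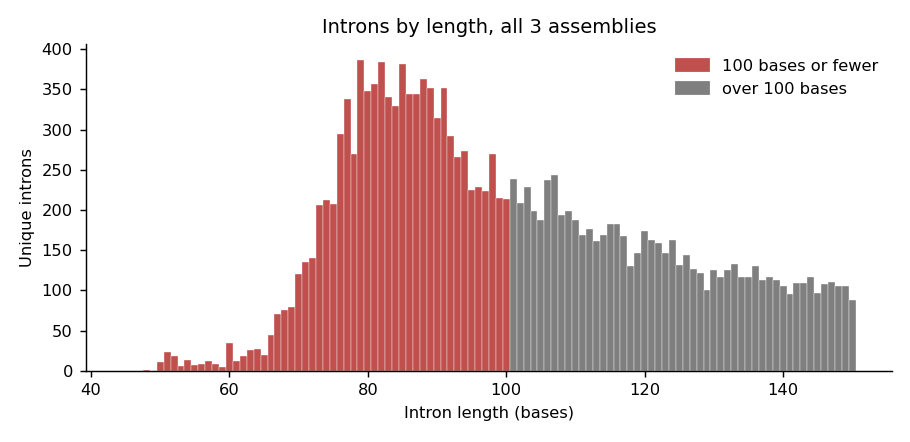
Unique introns of the 3 assemblies by length in bases, 1 bar per length, with introns of 100 bases or fewer in red and longer ones in grey. Numbers climb steeply between 65 and 79 bases, the commonest length with 387 introns, and fall slowly past 100 bases.

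The lower edge lay at 50 bases, with a thin tail up to 69 bases. A single intron was shorter, 48 bases on scaffold 19184 (positions 79275 to 79322, minus strand), found in muscle-3 alone and also covered by an assembled exon. Exactly 50 bases was reached by 11 introns. Counts per 5 lengths were 72 at 50 to 54 bases, 40 at 55 to 59, 119 at 60 to 64 and 289 at 65 to 69, against 813 at 70 to 74 and 1497 at 75 to 79. Spliced aligners and assemblers take a smallest intron length as a setting, and the one used for these files is not given in the sources used here.

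Introns under 70 bases numbered 521 (5.64% of the members), and 289 of them had 65 to 69 bases. The limit of 70 bases was chosen after the values were seen, so the interval of the difference across it is descriptive only. As a set, introns under 70 bases differed from the 8722 of 70 to 100 bases. They were found in all 3 assemblies at 29.6% (Wilson 95% interval 25.8 to 33.6), against 57.3% for 70 to 100 bases, a difference of -27.7 percentage points (Newcombe 95% interval -31.6 to -23.5). By 5 lengths the share in all 3 was 11.1% at 50 to 54 bases, 7.5% at 55 to 59, 12.6% at 60 to 64 and 44.3% at 65 to 69, and between 54.4% and 59.2% for each class from 70 to 99 bases. They were the only intron of their transcript in 23.6% of cases (123 of 521), against 4.44% (387 of 8722). They lay on a scaffold with a listed gene in 83.3%, against 96.9%, and 99.3% of the longer introns did.

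An assembled exon ran across the whole intron, on the same strand or in a transcript without strand, for 203 of the 521 introns under 70 bases (39.0%, 34.9 to 43.2), against 862 of 8722 (9.88%, 9.27 to 10.5). Longer introns stood at 1.90% by this measure. With same-strand exons only, 120 of the 521 were covered (23.0%), against 7.27% of introns of 70 to 100 bases. Lengths of the shortest introns were also unevenly spread over the reading frame. Of 240 introns of 51 to 65 bases, 110 (45.8%, 39.6 to 52.2) had a length divisible by 3, which would add whole codons if the intron were kept. At 66 to 80 bases 740 of 2927 (25.3%, 23.7 to 26.9) did, and at 81 to 98 bases 1838 of 5636 (32.6%, 31.4 to 33.8). Each range holds the same number of lengths of each remainder, but counts climb from 66 to 80 bases, which by itself favours the other remainders there. From 51 to 65 bases the counts did not climb steadily, and the single lengths of 51 and 60 bases gave 23 and 35 of the 110. The range boundaries were chosen after the values were seen. High cover and low sharing held for the whole range of 51 to 65 bases. An assembled exon covered 59.1% of the introns divisible by 3, and 51.4% and 48.3% of those with a remainder of 1 and 2, while 8.18%, 15.3% and 13.8% were in all 3 assemblies.

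The shortest introns found in all 3 assemblies, of which 5 are given here, lay on transcripts of 1 to 3 introns. Those of 50 bases were on scaffold 17892 (positions 432 to 481, minus strand), as the only intron between exons of 305 and 273 bases, on scaffold 22521 (1550 to 1599, minus strand), as the last of 2 introns, and on scaffold 6308 (244 to 293, minus strand), as the first of 3. The next were 51 bases long, on scaffold 167521 (65 to 115, minus strand) and scaffold 20055 (197 to 247, plus strand). Of these 5, the intron on scaffold 6308 was also covered by an assembled exon. The 50-base intron on scaffold 17892 was the first-listed shortest intron of liver and of muscle-2.

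Over all lengths, short introns were found in both tissues slightly less often than longer ones. How far this depended on introns under 70 bases varied with the longer introns compared. In liver and in at least 1 muscle assembly, 5697 of 9243 short introns were found (61.6%, Wilson 95% interval 60.6 to 62.6), against 92493 of 144567 longer introns (64.0%, 63.7 to 64.2), and 63.8% of all introns. The difference was -2.34 percentage points (Newcombe 95% interval -3.37 to -1.33). Without introns under 70 bases, a limit chosen after seeing the data, the difference was -0.84 (-1.89 to 0.20). Leaving out members of low sharing narrows it by construction. Against longer introns of up to 1000 bases only, with all short introns kept, the difference was -5.81 (-6.86 to -4.77). Introns of 70 to 100 bases alone stood at 63.1% (62.1 to 64.15), against 67.45% (67.1 to 67.8) of longer introns of up to 1000 bases. Short introns found in all 3 assemblies numbered 5150 (55.7%), against 58.2% of longer introns and 58.1% of all introns. A further 502 short introns were found in liver only (5.43%, against 5.92% of all introns), and 3044 in muscle only (32.9%, against 30.2% of all introns).

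Read from each tissue, the intervals of short and of all longer introns overlapped for liver and not for muscle. Against longer introns of up to 1000 bases they overlapped for neither tissue. Of 6199 short liver introns 5697 were in a muscle assembly (91.9%, 91.2 to 92.56), against 91.5% of the longer liver introns (91.3 to 91.7). Longer liver introns of up to 1000 bases stood at 92.8% (92.58 to 93.01). Of 8741 short muscle introns 5697 were in liver (65.2%, 64.2 to 66.2), against 68.0% of the longer muscle introns (67.8 to 68.3). Longer muscle introns of up to 1000 bases stood at 71.2% (70.8 to 71.5). Between the muscle assemblies, 83.2% of the short introns of muscle-2 were in muscle-3 and 90.5% of those of muscle-3 were in muscle-2. Longer introns gave 83.9% and 89.8%. Whether these assemblies come from separate birds, libraries or runs is not stated in the labels, so their agreement may be technical.

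The sign turned when only introns inside a spliced transcript of the same strand in each assembly were counted. These were 5908 short introns (63.9%) and 98069 longer introns (67.8%). In this set 89.4% of short introns (88.6 to 90.2) were found in liver and muscle, against 87.8% of longer introns (87.6 to 88.0), a difference of 1.65 percentage points (0.82 to 2.44). An intron found in all 3 assemblies belongs to this set by construction, so the set raises the shares of both classes. Against longer introns of up to 1000 bases the difference within it was -0.43 (-1.28 to 0.37). For introns found in all 3 assemblies the same comparison gave -1.17 (-2.09 to -0.30).

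**Figure D2:**
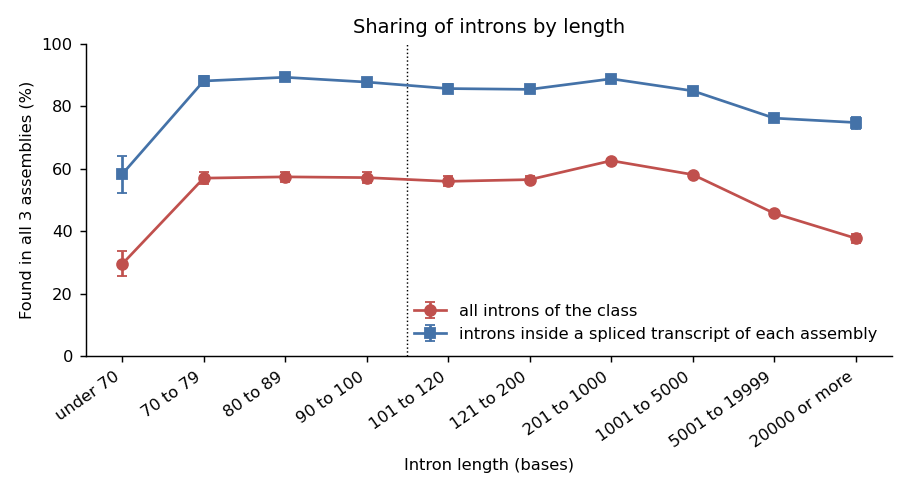
Introns found in all 3 assemblies, in percent, by length class in bases, for all introns (red circles) and for introns inside a same-strand spliced transcript of each assembly (blue squares). Bars are Wilson 95% intervals, and the dotted line marks the limit of 100 bases. Introns under 70 bases stood at 29.6% and 58.3%, those of 80 to 89 bases at 57.5% and 89.3%, and those of 20000 bases or more at 37.8% and 74.9%.

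Sharing was close to level from 70 bases to 200 bases. In all 3 assemblies were 57.1% of introns of 70 to 79 bases, 57.5% of 80 to 89, 57.2% of 90 to 100, 56.0% of over 100 to 120 and 56.6% of over 120 to 200 bases. The share was higher for introns of over 200 to 1000 bases (62.7%) and lower for those of over 5000 to under 20000 bases (45.8%).

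Gene levels could be set beside these classes only on scaffolds with 1 listed gene in the authors' RPKM table (reads per kilobase, scaled for the size of the library). Where the scaffold's short introns were found in muscle only, the median RPKM of the 108 genes was 0.209 in liver and 1.12 in muscle. For 151 genes with a short intron found in both tissues it was 1.48 in liver and 3.59 in muscle. Short introns found in liver only came with 9 such genes, with a median RPKM of 4.75 in liver and 0.0563 in muscle, and 8 of the 9 were higher in liver. In each set the tissue with the higher median was the one that held the introns, but muscle was also the higher tissue where both held them. The median difference, liver minus muscle on the log2(RPKM + 1) scale, was -0.66 for the muscle-only set, -0.71 for the set found in both tissues and 2.40 for the liver-only set. This scale understates differences of genes with low values. These medians therefore do not show whether the muscle-only or the shared genes lay further towards muscle. Higher in liver were 1 of the 108 muscle-only genes (0.926%) and 25 of the 151 shared ones (16.6%). The assemblies and the table come from the same reads and are not separate evidence.

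Scaffolds with 1 listed gene and any short intron (277 genes) had a median difference of -0.67 between liver and muscle on the log2(RPKM + 1) scale. The 524 genes with longer introns only had -0.42. In the same order, 12.6% and 13.9% of the genes were higher in liver. How genes were counted and measured in length for the RPKM is not given in the sources used here, so no comparison of levels between sets of genes is drawn from these medians.

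Short introns lay along the whole transcript. Each intron was placed by the transcript with the most exons that holds it, and in transcripts of 2 or more introns 986 of 8733 short introns were first (11.3%, Wilson 95% interval 10.6 to 11.97), 6765 internal (77.5%) and 982 last (11.2%, 10.6 to 11.9). Of 141478 longer introns 13.9% were first (13.7 to 14.0), 75.5% internal and 10.7% last. The first-position share of short minus longer introns was -2.56 percentage points (-3.23 to -1.86), but -0.69 (-1.49 to 0.16) in the liver assembly alone and -0.96 (-2.13 to 0.31) with a limit of 80 bases. It was 1.33 points (0.65 to 2.04) against the longer introns of up to 1000 bases, of which 9.96% were first. The last position differed by 0.59 points (-0.08 to 1.29).

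Transcripts of 5 or more introns were divided into 5 parts by the order of their introns. Unless the number of introns was a multiple of 5, the first part held more introns than the last. The short introns of these transcripts were spread nearly evenly over the parts. From the 5′ to the 3′ end the parts held 20.9% (20 to 21.8), 19.1%, 20.5%, 20.7% and 18.8% (17.9 to 19.6) of all short introns counted. Those under 70 bases gathered towards both ends, with 26.5%, 14.8%, 13.8%, 19.4% and 25.4%. Longer introns held 26.2% in the first part and between 17.7% and 18.8% in the others. Introns of up to 1000 bases had 20.5% in the first part. In transcripts of 8 or more introns, 3.85% of first introns were short (412 of 10708, 3.5 to 4.23), against 4.51% of introns at place 2, 5.48% at place 3 and 5.99% at place 6 from the 5′ end (5.45 to 6.57). The first introns of vertebrate genes are in general the longest, and often hold regulatory sequence.

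Transcripts with 1 intron had the largest share of short ones. There 510 of 3599 introns were short (14.2%, 13.1 to 15.3), against 6.65% in transcripts of 2 to 4 introns, 5.38% in those of 20 to 49 and 6.98% in those of 50 or more. Of the members, 5.52% were the only intron of their transcript, against 2.14% of longer introns, a difference of 3.38 percentage points (2.93 to 3.87).

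Short introns came in groups. In transcripts of 2 or more introns, 3081 of 8733 short introns (35.3%, Wilson 95% interval 34.3 to 36.3) had another short intron directly before or after them, against 11197 of 141478 longer introns (7.91%, 7.77 to 8.06), a difference of 27.4 percentage points (26.4 to 28.4). Against longer introns of up to 1000 bases, of which 11.6% had a short neighbour, the difference was 23.6 points (22.6 to 24.7). Internal short introns had a short intron on both sides in 10.5%, against 0.867% of internal longer introns. The introns next to a short intron had a median of 274 bases, against 857 bases next to a longer one.

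In each assembly about the same share of spliced transcripts held a short intron. They were 4560 of 17536 in liver (26.0%), 5639 of 21109 in muscle-2 (26.7%) and 5256 of 19743 in muscle-3 (26.6%). Most of these had 1 short intron, and 1746, 2164 and 1992 had 2 or more, in the same order. At 10 or more there were 57, 87 and 87 transcripts.

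Unbroken runs of 2 or more short introns numbered 1295, on 1167 separate stretches of the genome, and held 3125 members (33.8%). Of these runs 835 had 2 introns, 249 had 3 and 105 had 4, while 106 had 5 or more, on 78 stretches. Transcript variants of 1 locus can give several runs. As a whole, 620 runs (47.9%) were present in 1 transcript of each of the 3 assemblies. Single members in runs were found in all 3 assemblies at 60.7% (59.0 to 62.4), against 53.2% (51.9 to 54.4) for short introns in no run. The share was 58.1% over all introns and 58.2% over longer introns, so members in runs lay near it and the others below it. Short introns in no run include the 510 that were the only intron of their transcript, which cannot be in a run. Members in runs had a median of 82 bases, and the others 86.

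The longest run had 13 short introns in 2547 bases on scaffold 18915 (positions 1242050 to 1244596, minus strand). It was whole in liver, muscle-2 and muscle-3. From 5′ to 3′ its introns had 87, 89, 81, 99, 78, 89, 76, 90, 75, 89, 78, 87 and 72 bases, and the 12 exons between them had 48 to 186 bases. Its introns sum to 1090 bases and its exons to 1457 bases. The transcript that holds it had 26 introns, 20 of them short.

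A run of 10 on scaffold 22851 (199123 to 201272, plus strand) had exons of alternating length. Its 9 exons had 152, 139, 152, 139, 152, 139, 152, 139 and 144 bases, and its introns 84, 89, 82, 85, 82, 89, 82, 86, 90 and 73 bases. The introns before the exons of 152 bases had 84, 82, 82 and 82 bases, and those after them had 89, 85, 89 and 86. This run too was whole in all 3 assemblies. It belonged to a muscle-3 transcript of 91 introns, 54 of them short. Reads from near-identical repeats can be aligned to the wrong copy, and whether these exons are alike in sequence was not examined here.

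Counting each stretch of the genome once, by its longest run, 3 more stretches held 9 or more short introns in a row. These runs were whole in 1 assembly each, and variants with other introns on 2 of the stretches bring the runs of 9 or more to 9 in all. On scaffold 11775 (43184 to 44752, plus strand) 10 introns of 67 to 94 bases ran in muscle-2, with exons of 47 to 137 bases. Of these introns 9 were in all 3 assemblies. A variant run of 9 short introns between the same positions was whole in liver and muscle-3. On scaffold 2902 (2243216 to 2245313, plus strand) 9 introns of 69 to 95 bases ran in liver, and 4 of them were in all 3 assemblies. A variant run of 9 there (2243443 to 2245313) was whole in muscle-2. On scaffold 3513 (116123 to 118025, minus strand) 9 introns of 75 to 99 bases ran in liver, and all 9 were found singly in all 3 assemblies.

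**Figure D3:**
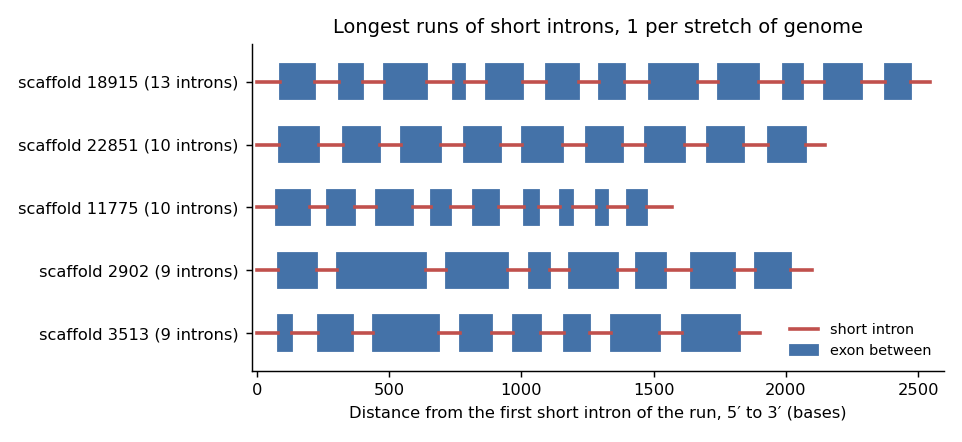
The longest run of each of the 5 stretches of genome with 9 or more short introns in a row, 1 per row, drawn to scale from the first short intron of the run in bases, 5′ to 3′. Red lines are short introns and blue boxes the exons between them. The run on scaffold 22851 has exons of 152 and 139 bases in turn, and the longest run has 13 introns over 2547 bases.

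The transcript with the most short introns differed between the tissues. In both muscle assemblies it was a transcript of 145 exons on scaffold 22693 (422780 to 537194 in muscle-2 and 423093 to 537190 in muscle-3, minus strand), with 55 short introns among 144 (38.2%). All 55 were in both muscle assemblies and none in liver. They added 5035 bases to a spliced length of 68544 bases in muscle-2, and no run in this transcript was longer than 6. In liver the transcript with the most was on scaffold 22087 (2452866 to 2462556, plus strand), with 22 short introns among 31 (71.0%), 21 of them in all 3 assemblies.

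Some transcripts were spliced through short introns alone. Over the assemblies 10 transcripts of 5 or more introns had no longer one. The highest number of introns among them was 6, and 3 examples follow. On scaffold 21198 (22618 to 23708, plus strand) they had 98, 76, 71, 87, 75 and 75 bases around a spliced length of 609 bases. On scaffold 22087 they had 82, 76, 82, 74, 92 and 72 bases (2350922 to 2352541, plus strand), and in a second transcript 76, 84, 88, 68, 72 and 82 bases (2366866 to 2368446, minus strand). Each of these introns was found in all 3 assemblies.

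Exons beside short introns were slightly shorter than others. Internal exons beside a short intron, 13506 in all, had a median of 116 bases, with quartiles at 84 and 156. The 123102 internal exons beside a longer intron had a median of 123 bases (90 and 166), and exons beside both kinds count in both sets. Upstream and downstream exons of short introns had medians of 117 and 116 bases. For the next counts an exon was taken once, with the introns on both of its sides in 1 transcript, which gives slightly other numbers of exons. Between 2 short introns the 1928 internal exons had a median of 118 bases (95% interval of the median 115 to 121), between a short and a longer one 116 (115 to 117), and between 2 longer introns 124 (124 to 125).

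The groups differed at both ends of the size range. Exons of over 300 bases were 2.75% of those between 2 short introns (2.11 to 3.58), 3.62% of those beside 1 and 5.10% of those between 2 longer introns (4.98 to 5.23). Exons of 30 bases or fewer, called microexons, were 1.92% (1.39 to 2.63), 1.23% and 0.740% (0.691 to 0.792), in the same order. Introns under 70 bases differed from the other short introns here too. Of the internal exons beside them 5.98% had 30 bases or fewer (4.33 to 8.21), against 1.11% beside introns of 70 to 100 bases. Those of over 300 bases were 7.35% (5.50 to 9.76), against 3.26% beside introns of 70 to 100 bases and 4.95% beside longer introns. Exon lengths divisible by 3 made up 39.4% beside short introns (38.6 to 40.3) and 39.6% beside longer ones. The shortest exon between 2 short introns had 12 bases, between introns of 69 and 62 bases on scaffold 10172 (27351 to 27362, minus strand), in muscle-2 alone. The longest had 2967 bases, between introns of 94 and 96 bases, in the muscle transcript on scaffold 22693 (480151 to 483117).

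**Figure D4:**
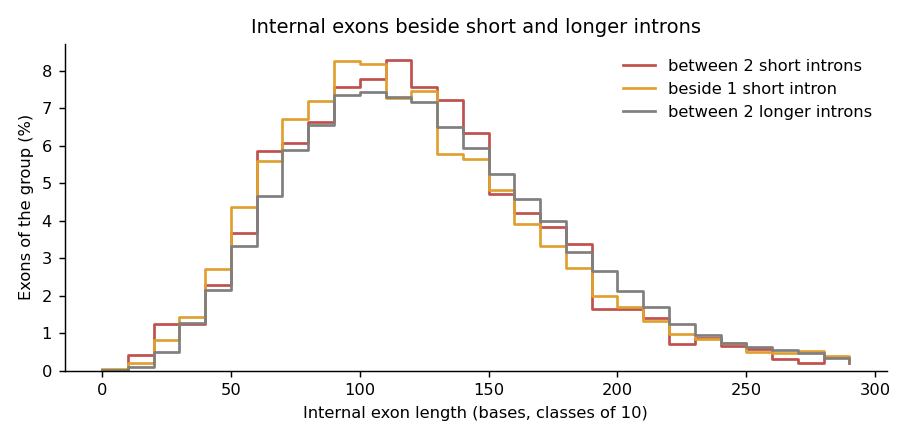
Lengths of internal exons in classes of 10 bases, in percent of each group, for exons between 2 short introns (red), beside 1 short intron (orange) and between 2 longer introns (grey). The groups overlap widely, with medians of 118, 116 and 124 bases.

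Short introns were more often covered by an assembled exon than longer ones. A same-strand exon ran across 754 of 9243 short introns (8.16%, Wilson 95% interval 7.62 to 8.73), against 1377 of 144567 longer introns (0.953%, 0.904 to 1.00). Introns just over the limit, of over 100 to 120 bases, stood at 4.44% (3.83 to 5.14). By assembly, 4.05% of short introns were covered in liver, 3.58% in muscle-2 and 4.05% in muscle-3. Longer introns had 0.534%, 0.576% and 0.557%, in the same order. An assembly that also spliced the intron held such an exon for 469 short introns (5.07%). This was so for 0.603% of longer introns and 2.88% of introns of over 100 to 120 bases. A short gap needs only a short stretch of reads to be bridged, so this share depends on length by construction.

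Ends were shared with other introns less often. Of the short introns 1143 (12.4%, 11.7 to 13.1) had a donor or acceptor site in common with another intron, against 25.2% of longer introns (25 to 25.5), 18.2% of longer introns of up to 1000 bases (17.9 to 18.5) and 15.8% of introns of over 100 to 120 bases (14.7 to 17). Introns under 70 bases stood at 19.96% (16.75 to 23.61), which was not below longer introns of up to 1000 bases. Those of 70 to 100 bases stood at 11.91% (11.25 to 12.61). Pairs of short introns with the same donor numbered 133. Their acceptors were 3 bases apart in 44 of these pairs, more than at any other distance up to 12 bases, where 9 pairs at 1 base were the next most. Acceptors 3 bases apart are known from tandem NAG sites, at which the spliceosome can cut after either copy. Pairs with the same acceptor numbered 84, with 16 at 1 base, 12 at 2, 11 at 3 and 15 at 4 bases between the donors.

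The members were unevenly spread over the genome. They lay on 1268 of 2529 scaffolds with a spliced transcript. Among 51 scaffolds of 500 or more introns the share of short introns had a median of 5.68%, with quartiles at 3.37% and 8.54%. It was highest on scaffold 22073, with 159 of 525 (30.3%, 26.5 to 34.4), followed by scaffold 21415 with 148 of 741 (19.97%, 17.2 to 23.0) and scaffold 22151 with 108 of 596 (18.1%, 15.2 to 21.4). It was lowest on scaffold 20892, with 7 of 666 (1.05%, 0.51 to 2.15). The median intron, of any length, had 203 bases on scaffold 22073 and 1049.5 bases on scaffold 20892. In number of members scaffold 3513 came first among these, with 209 of 1202 introns (17.4%).

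**Figure D5:**
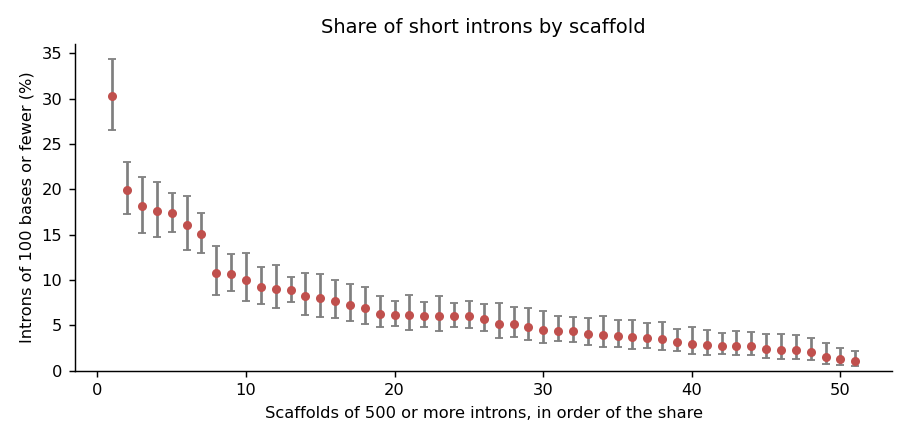
Share of introns of 100 bases or fewer, in percent, on each of 51 scaffolds of 500 or more introns, in order of the share. Bars are Wilson 95% intervals. Shares run from 30.3% to 1.05%, and 9 scaffolds lie above 10%.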

How the data were processed

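Reads had been aligned with TopHat, a spliced aligner, per the submitters' processing notes. Transcripts had been assembled with Cufflinks, per the file headers' source column. The sources used here give no version, option, genome build or annotation. The deposited assemblies give transcripts and rows labelled CDS. These rows reach both ends of all 81798 transcripts, so they were read as exons, with untranslated parts not told apart. Each transcript has a Cufflinks score between 100 and 1000, set by the authors' assembly and not used here as a measure of level. The authors deposited a table of RPKM for 15394 genes, 1 column per tissue. Its 3 rows that are not genes were left out. If listed at a length of 1 base, they hold 24.3% of liver and 30.6% of muscle reads (no feature), 0.0635% and 0.217% (ambiguous), and 2.80% and 4.13% (not unique).

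From these, introns, placing transcripts, runs, flanking exons and exon cover were computed in Python 3.11.15 with scipy 1.17.1 and numpy 2.4.6. On simulated assemblies every intron, position, run and intron covered by a same-strand exon was recovered. These held 1 spliced transcript per scaffold, so the choice between transcript variants was not tested. Flanking exons were not tested there either. An assembly gives no reads per intron, so the depth behind a single intron is unknown, and an intron missing from an assembly was not shown to be unspliced in that tissue. Shares have Wilson and differences Newcombe 95% intervals, for counting error only, and medians of exons have intervals from order statistics. No p-value was computed, since there was 1 sample per tissue. The members and rules were chosen with earlier results of these data known. Named introns and transcripts were the 5 shortest in all 3 assemblies and the shortest of each, the 5 longest runs (each stretch of genome once, by its longest run, with ties between variants decided by the number of assemblies holding the whole run, then by scaffold and start), the transcripts with most and with the highest share of short introns, and the extreme exons between 2 short introns. Gene lists could not be evaluated without names. No sequence was used. Coordinates are those of the authors' scaffolds, 1-based. Figures were drawn with matplotlib 3.10.9.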

Additional observations from a re-analysis of the deposited data

How the results depend on the processing

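No paired analysis was possible because each tissue has 1 sample. Intervals here are as in the report, and the cause of each change was not tested unless the setting itself gives it. A result was counted as moved when it left its own 95% interval, or 1.5 times for a count. With a limit of 80 bases there were 3179 short introns, 58.7% were found in liver and muscle, the sharing difference to longer introns was -5.22 percentage points, the first-position difference -0.96 (-2.13 to 0.31), the neighbour difference 22.6 and the median internal exon 120 bases. With a limit of 120 bases the neighbour difference was 28.9. With full-score transcripts only, the sharing difference was -3.97 and the first-position difference -1.61. With transcripts of 5 or more exons, 63.8% were shared and the sharing difference was -1.11. Against longer introns of up to 1000 bases only, the sharing difference was -5.81, the neighbour difference 23.6, and the first-position difference turned to 1.33. Inside a spliced transcript of each assembly 89.4% were shared and the sharing difference turned to 1.65. The share was 62.7% with ends matched within 5 bases, 68.7% for internal introns and 65.8% with muscle-3 alone. With introns of 2 or more assemblies the first-position difference was -1.15 and the neighbour difference 28.7. Placed by liver, muscle-2 or muscle-3 alone, the first-position difference was -0.69 (-1.49 to 0.16), -1.74 and -1.81, and the median exon beside short introns was 114 bases in liver. It was 119 bases with terminal exons included. Without introns under 70 bases, a setting chosen after seeing the data, 63.1% were shared and the sharing difference was -0.84 (-1.89 to 0.20). The other 36 of 64 values stayed within these bounds and kept their sign. Liver stayed below muscle in its share of short introns under every setting tried, from -0.37 to -0.16 percentage points. The interval was -0.36 to 0.01 for transcripts of 5 or more exons and -0.34 to 0.02 without introns under 70 bases. Intervals of this difference treat liver and muscle introns as separate sets. Most liver introns are also muscle introns (5697 of 6199 short ones), so whether an interval includes 0 decides nothing here.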
